A study of Mus musculus with 15 samples.

Results

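Whether loss of the nuclear receptors REV-ERB alpha and REV-ERB beta changed gene expression in the suprachiasmatic nuclei (SCN) differently by day and by night was measured as a genotype by time interaction. On the log2 scale this is the DKO minus control difference at CT16 minus the DKO minus control difference at CT4, where DKO is the genotype that lacks both receptors and CT is circadian time in hours. A positive interaction means that DKO stood higher relative to control at CT16 than at CT4, and a negative one the opposite. All 15 libraries of the series enter it: 3 of control and 3 of DKO at CT4, in the subjective day, and 5 of control and 4 of DKO at CT16, in the subjective night. Of 24419 genes in the table, 16910 passed a filter on low counts, and each of these was tested.

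The mice of all 4 groups were C57BL/6 animals aged 8 to 12 weeks, and each library held RNA of 2 to 4 SCN punches. The labels name the genotypes control and REV-ERBS DKO. The sources used here give neither the driver and the cells of the deletion nor the sex of the mice.

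REV-ERBs are repressors within the circadian clock. They bind a DNA element shared with the ROR activators, recruit the NCoR and HDAC3 corepressor complex, and hold down Arntl (which encodes BMAL1), Npas2, Cry1 and Nfil3. CLOCK with BMAL1 or NPAS2 drives genes with E-boxes, among them Per and Cry genes and the REV-ERB genes themselves, so the receptors form a loop that interlocks with the core clock. Their own abundance is strongly rhythmic.

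Total counts ran from 32580803 to 68757624 per library. The SCN identity factors, 11 genes such as Six6 and Lhx1, were present in every library, at a summed level of 632 to 987 in control and 550 to 598 in DKO at CT4, and 658 to 821 and 558 to 867 at CT16, in CPM (read counts scaled by library size). Markers of other tissue were also uneven between libraries. A score over 25 tested markers of neighbouring hypothalamic nuclei, of 26 listed, is the mean of their log2 CPM relative to all libraries. It was -0.92 to 0.31 in control and 0.35 to 0.79 in DKO at CT4, and -0.28 to 0.78 and -1.07 to 0.52 at CT16, with summed levels of 589 to 1008, 1034 to 1129, 890 to 1206 and 530 to 990 CPM. The groups' mean scores were -0.36, 0.55, 0.18 and -0.36 in that order, so the score has an interaction of its own. Control CT4 replicate 1 (0.31) and DKO CT16 replicate 3 (0.52) were the highest of their groups, and DKO CT16 replicate 4 had the highest myelin score of all libraries, 1.60. Among defining markers, the haemoglobin genes of blood were at 0 to 1 counts, and Barhl1 and Lmx1b, of the caudal hypothalamus, at 14 counts or fewer. Alas2, the other blood marker listed, was present in every library. It stood at 3.08 to 4.38 CPM in control and 2.80 to 3.07 CPM in DKO at CT4, and at 2.94 to 6.63 and 3.02 to 7.58 CPM at CT16. In bulk tissue, fewer cells of a type and less RNA per cell cannot be told apart.

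**Figure D1:**
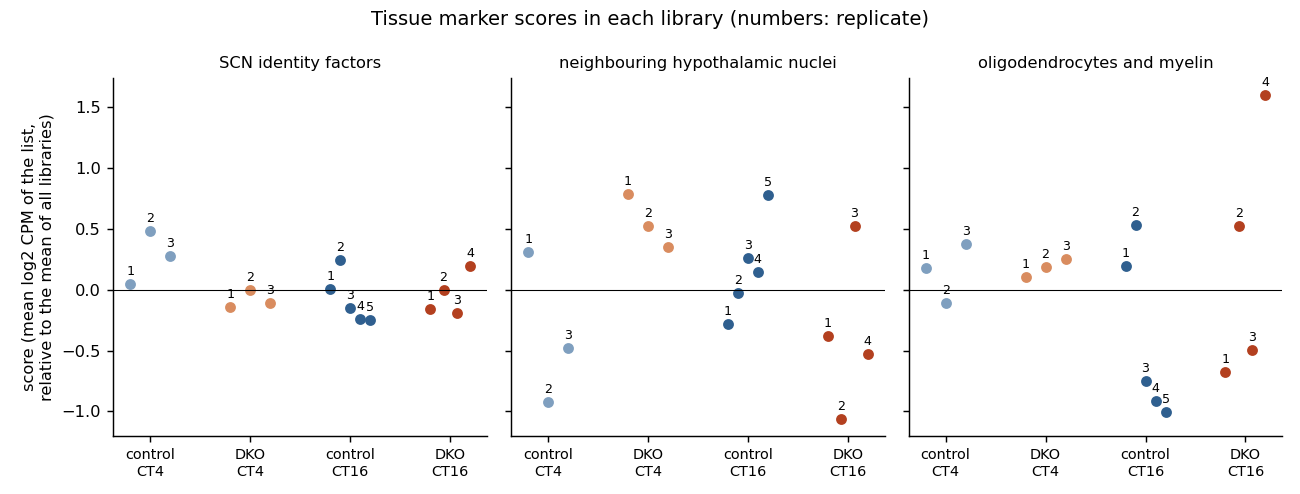
Scores of marker lists in each library (y axis, mean log2 CPM relative to the mean of all libraries) by group on the x axis, with the replicate number beside each point. For neighbouring hypothalamic nuclei, all 3 DKO CT4 libraries lie above 0, while 3 of the 4 DKO CT16 libraries lie below it and replicate 3 stands at 0.52.

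Only Fabp7 and Pla2g3 passed the test of the interaction, both positive: 2 genes were higher (0.0118% of those tested) and 0 lower (0%; edgeR quasi-likelihood test, adjusted p under 0.05). Many genes lay just past the threshold. The next adjusted p was 0.0511, 17 genes lay under 0.06 and 52 (0.308%) under 0.1, 36 of them positive and 16 negative. At an unadjusted p under 0.05 there were 1410 positive genes (8.34%) and 1147 negative ones (6.78%), together 15.1%. DESeq2 called 189 positive and 171 negative genes from the same counts, and limma voom with sample quality weights 229 and 193. The median standard error of the interaction was 0.147, against 0.114 for the genotype difference at CT4 and 0.093 for that at CT16. By size alone, 817 genes (4.83%) had an interaction of at least 1 on the log2 scale.

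The number called rested heavily on 1 library. Without DKO CT16 replicate 3, 298 genes were called, 162 positive and 136 negative, and without control CT16 replicate 2 there were 12. Without the 3 libraries named above for their markers there were 423, 247 positive and 176 negative. That exclusion did not even out the markers of neighbouring nuclei between groups. The median interaction of the neighbouring nuclei markers was -0.94 over all libraries and -2.10 without the 3, the lowest of 28 alternatives. With the neighbouring nuclei score as a covariate 0 genes were called by edgeR, and 912 (5.39%) had an unadjusted p under 0.05. Of the 60 genes followed one by one across the alternatives, 21 kept their sign with an interaction more than 1.5 times smaller beside that score, 5 changed sign, 3 were more than 1.5 times larger and 31 stayed within 1.5 times. The score differs between the groups in the pattern of the interaction itself, so for the genes and lists below, the clock genes included, tissue content of the punches and an effect of genotype by time cannot be told apart in these libraries.

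Of the 52 genes with an adjusted p under 0.1, the genotype difference was larger in size at CT16 for 29 and at CT4 for 23. In 15, DKO stood above control at both times and more so at CT16. In 20 DKO stood below control at CT4 and above it at CT16, and in 14 the reverse held. These genes were picked by the interaction itself, so the classes only describe them.

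**Figure D2:**
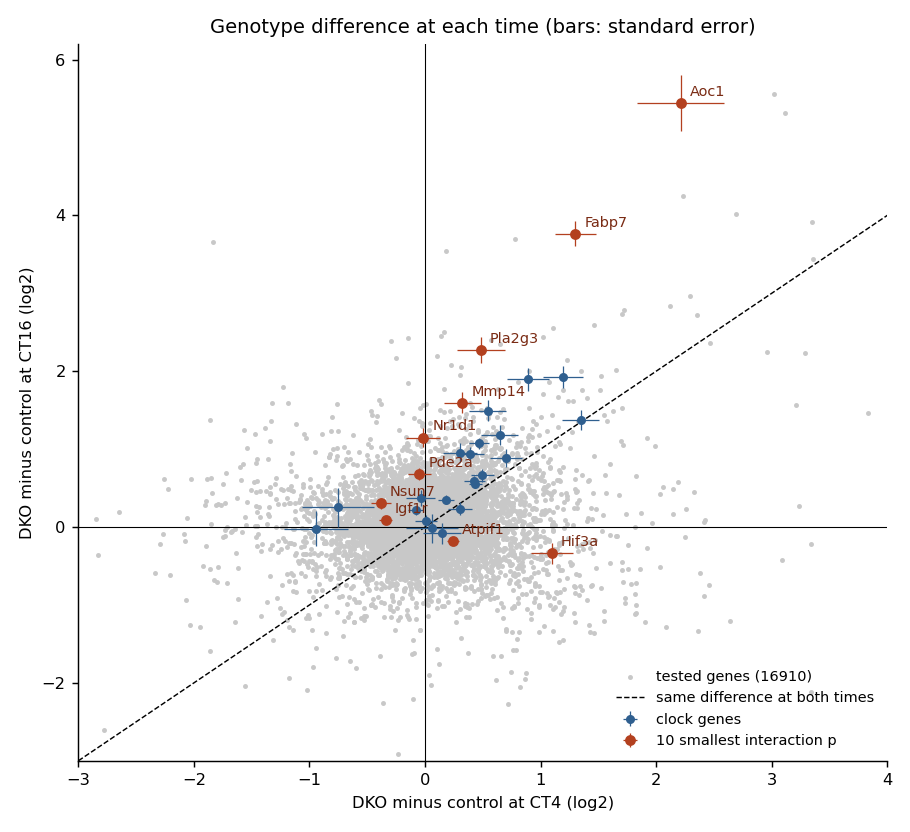
DKO minus control at CT4 (x axis) and at CT16 (y axis), both log2, for the 16910 tested genes, less 16 outside the plotted range, with the clock genes and the 10 genes of smallest interaction p marked and bars for standard errors. Fabp7 (1.30 and 3.76) and Pla2g3 (0.48 and 2.28) lie above the line of equal differences, and Hif3a (1.10 and -0.34) below it.

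Fabp7, the brain fatty acid binding protein of astrocytes and radial glia, had the smallest p of all genes (chromosome 10, 57784923 to 57788450, plus strand, mm10). Control libraries held 57.4, 44.9 and 41.4 CPM at CT4 and DKO libraries 119, 122 and 113 CPM. At CT16 the control libraries held 11, 11.9, 9.91, 14.1 and 10.1 CPM and the DKO libraries 155, 191, 111 and 164 CPM. The genotypes did not overlap at either time, and all 5 controls at night lay below all 3 controls by day, while the DKO libraries overlapped between times. DKO minus control was 1.30 ± 0.18 (standard error, 2.46-fold) at CT4 and 3.76 ± 0.16 (13.6-fold) at CT16. The interaction was 2.46 ± 0.24, with a 95% interval of 1.95 to 2.97 (adjusted p = 0.00192).

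By time, Fabp7 fell from CT4 to CT16 in control (-2.07 ± 0.16, adjusted p = 2.25e-05), and in DKO the same change was 0.39 ± 0.17 (adjusted p = 0.228). Fabp7 was called in 26 of 28 alternatives, with an interaction of 2.20 to 2.59 and adjusted p of 1.13e-25 to 0.108. The call was lost with the neighbouring nuclei score as a covariate (2.20, adjusted p = 0.108) and with that and the myelin score (adjusted p = 0.102). The 15 astrocyte markers had a median interaction of 0.13 and summed to 6494 to 6913 CPM in control and 6318 to 6564 CPM in DKO at CT4, and to 6046 to 7272 and 6089 to 7233 CPM at CT16, so that the groups overlapped; their part in the result was not tested.

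The promoter of Fabp7 is shown because it holds the longer REV-ERB motif searched, TAGGTCA, which stood on either strand in 2.24% of 12563 tested genes with a RefSeq promoter (windows of 250 bases before to 50 after the start). The 250 bases before the start (GRCm38.p6, chr10:57784673-57784922, plus strand) are given 5′ to 3′, with the motif in capitals as it reads on this strand, TGACCTA, at position -171 from the start.
Fabp7: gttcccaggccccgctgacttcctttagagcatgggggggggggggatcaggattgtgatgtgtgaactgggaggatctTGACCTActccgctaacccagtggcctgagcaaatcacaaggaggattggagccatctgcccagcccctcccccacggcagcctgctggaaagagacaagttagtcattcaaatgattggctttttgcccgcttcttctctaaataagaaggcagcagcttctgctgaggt

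Pla2g3, a secreted phospholipase A2 that frees fatty acids from phospholipids, was the other called gene (chromosome 11, 3488227 to 3494166, plus strand, mm10). At CT4 it stood at 4.17, 5.51 and 4.82 CPM in control and 7.14, 7.1 and 6.02 CPM in DKO. At CT16 it stood at 5.09, 3.44, 3.89, 3.07 and 4.28 CPM in control and 25.3, 14.8, 15.6 and 20.6 CPM in DKO. The genotypes did not overlap at either time, and the gap between them was far wider at night. DKO minus control was 0.48 ± 0.21 at CT4, which did not pass (adjusted p = 0.281), and 2.28 ± 0.17 at CT16 (4.84-fold, adjusted p = 1.06e-06). The interaction was 1.79 ± 0.27, with a 95% interval of 1.23 to 2.36 (adjusted p = 0.0382).

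By time, Pla2g3 rose from CT4 to CT16 in DKO (1.5 ± 0.19, adjusted p = 0.000838) and changed by -0.30 ± 0.19 in control (adjusted p = 0.4). This is the other way round from Fabp7, for which the control libraries differed by time. Pla2g3 was called in 16 of 28 alternatives, with an interaction of 1.5 to 1.96 and adjusted p of 5.29e-07 to 0.787. Its call was lost without control CT4 replicate 2 or 3, any 1 DKO CT4 replicate, control CT16 replicate 3, 4 or 5, or DKO CT16 replicate 4 (interaction 1.68 to 1.83, adjusted p 0.0598 to 0.133), and with the neighbouring nuclei score as a covariate (1.64, adjusted p = 0.787).

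The other 8 of the 10 smallest p-values missed the threshold, at adjusted p of 0.0511 to 0.0517. Over all 10, the change with time had opposite signs in the genotypes for 8. It was called in control for 8, where 2.13% of all genes rose and 2.08% fell, and in DKO for 3 (1.29% and 0.509%). Of the 10, 6 differed by genotype at CT4, where 0.574% of all genes were higher and 0.71% lower in DKO, and 8 at CT16 (2.83% and 1.83%). The lowest DKO CT16 value was that of replicate 3 in 7, which was not counted over all tested genes. These counts come from the same libraries as the rank and describe the 10 genes.

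Aoc1, a diamine oxidase that degrades histamine and putrescine, had the largest interaction of the 10, 3.23 ± 0.54, but few reads. Its control libraries held 0.291 to 0.464 CPM at CT4 and 0.0385 to 0.132 CPM at CT16, and its DKO libraries 1.42, 2.47 and 1.49 CPM and 3.72, 3.9, 2.17 and 5.04 CPM. The genotypes did not overlap at either time, with DKO minus control at 2.21 ± 0.38 and 5.44 ± 0.36.

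Mmp14, a membrane-bound matrix metalloproteinase, stood at 41.1, 36 and 34.6 CPM in control and 42.7, 51.2 and 45.7 CPM in DKO at CT4. By night the values were 14.1, 9.91, 15, 16 and 13.7 CPM in control and 39.1, 42.4, 33.4 and 51.2 CPM in DKO. As for Fabp7, it fell from day to night in control (-1.44 ± 0.14, adjusted p = 8.81e-05), while the DKO libraries of both times overlapped (-0.17 ± 0.15, adjusted p = 0.588). The interaction of Mmp14 was 1.27 ± 0.21.

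Pde2a, a cyclic nucleotide phosphodiesterase that cGMP stimulates, stood at 324, 373 and 361 CPM in control and 320, 346 and 355 CPM in DKO at CT4, which overlap. At CT16 the values were 280, 279, 262, 269 and 251 CPM and 398, 499, 352 and 471 CPM, which do not. Its interaction was 0.73 ± 0.13, from -0.051 ± 0.10 by day and 0.68 ± 0.082 at night. With the neighbouring nuclei score as a covariate the interaction of Pde2a was 0.36 (adjusted p = 0.787), and with that and the myelin score 0.38 (adjusted p = 0.105). For Nsun7, of an RNA methyltransferase family, the genotype difference turned from -0.38 ± 0.088 by day (adjusted p = 0.0462) to 0.31 ± 0.072 at night (adjusted p = 0.0208). For Igf1r, the receptor of insulin-like growth factor 1, the difference lay by day, -0.34 ± 0.058 (adjusted p = 0.0126), and was 0.087 ± 0.047 at night (adjusted p = 0.319).

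The negative ones were Hif3a and Atpif1. Hif3a, a hypoxia-inducible factor subunit also induced by glucocorticoids, stood at 4.32, 4.6 and 3.19 CPM in control and 10.8, 8.91 and 6.34 CPM in DKO at CT4. The night values were 28.8, 33.7, 29.9, 33.2 and 29.1 CPM in control and 21.6, 25.9, 29 and 21.3 CPM in DKO. The genotypes were apart by day, with DKO higher (1.10 ± 0.18, adjusted p = 0.0126), and overlapped at night (-0.34 ± 0.13, adjusted p = 0.175), for an interaction of -1.43 ± 0.23. Hif3a rose from CT4 to CT16 in both genotypes, by 2.93 ± 0.17 in control and 1.49 ± 0.16 in DKO. It was called without DKO CT4 replicate 3 (-1.62, adjusted p = 0.00844), without control CT16 replicate 2 (-1.40, adjusted p = 0.0469) and without DKO CT16 replicate 3 (-1.53, adjusted p = 0.00676), and over all alternatives its adjusted p ran from 5.29e-07 to 0.787.

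Atpif1, which encodes the inhibitor of the mitochondrial ATP synthase, had a small and even difference. It stood at 75.8, 81.2 and 77 CPM in control and 91.1, 95.3 and 90.3 CPM in DKO at CT4, and at 91.3, 86, 91.9, 96.8 and 94.4 CPM and 82.1, 79.9, 84.9 and 78.3 CPM at CT16. The genotypes did not overlap at either time and changed places between them, for an interaction of -0.42 ± 0.068.

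**Figure D3:**
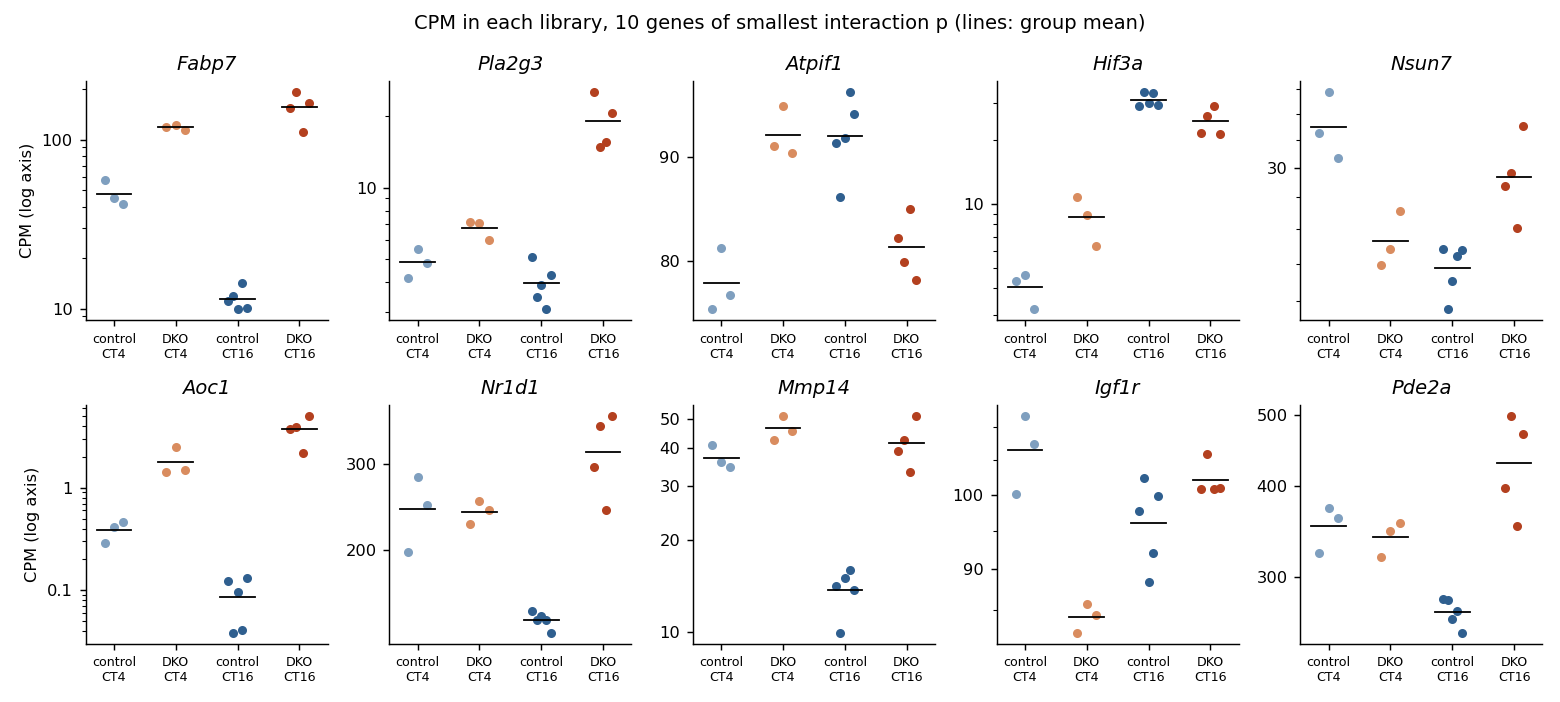
CPM (log axes, a separate range for each gene) in each library for the 10 genes of smallest interaction p, by group, with lines at the group means. In Fabp7, Mmp14, Nr1d1, Nsun7, Aoc1 and Pde2a all control libraries at CT16 lie below all those at CT4, while the DKO libraries of both times overlap.

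Nr1d1 and Nr1d2, the targeted genes, are themselves E-box genes of the clock. Their counts sum all exons, so a transcript that lacks some exons still counts and the values do not check the genotype labels. Nr1d1 (REV-ERB alpha) stood at 198, 282 and 248 CPM in control and 226, 252 and 242 CPM in DKO at CT4. By night there were 150, 144, 146, 144 and 135 CPM in control and 296, 360, 241 and 378 CPM in DKO. The day libraries overlapped and the night libraries did not, and the interaction was 1.16 ± 0.19 (adjusted p = 0.0517). For Nr1d2 (REV-ERB beta) the difference was present by day and larger at night, 0.47 ± 0.088 and 1.07 ± 0.072, an interaction of 0.60 ± 0.11 (adjusted p = 0.063).

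Without DKO CT16 replicate 3 both interactions were called, Nr1d1 at 1.28 (adjusted p = 0.00307) and Nr1d2 at 0.67 (adjusted p = 0.00588). Without control CT4 replicate 1 that of Nr1d1 was called (1.29, adjusted p = 0.0309). With the neighbouring nuclei score as a covariate they were 0.64 and 0.40 and neither was. Over all alternatives the adjusted p of Nr1d1 ran from 5.29e-07 to 0.603 and that of Nr1d2 from 0.000916 to 0.837.

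Among the 22 tested clock genes, which include these, no interaction was called by edgeR. Yet 19 were positive and 3 negative, against 52.7% positive and 47.3% negative among all genes. An unadjusted p under 0.05 was found for 12, all positive, where 8.34% of all genes were. The median difference between genotypes was 0.35 at CT4 and 0.62 at CT16, with 8 genes called higher in DKO at CT4 and 15 at CT16, and none called lower. Among all tested genes 0.574% were called higher at CT4 and 2.83% at CT16, and 0.71% and 1.83% lower. The clock genes were listed with their response in these samples known, so these counts describe them. In 18 of the 22, DKO CT16 replicate 3 was the lowest library of its group, a count not made over all tested genes. Without that library 7 clock interactions were called, when 1.77% of all genes were. On all 15 libraries DESeq2 also called 7, when it called 2.58% of the 13959 genes that it gave an adjusted p. Voom called 7 (2.5% of all genes), and edgeR with the myelin score as a covariate 5 (0.55%). With the neighbouring nuclei score as a covariate 0 were called and 16 were positive. Beside that score 10 of the 22 kept their sign with a value more than 1.5 times smaller, and 5 changed sign.

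The 8 genes listed as clock genes with ROR or REV-ERB elements had a median interaction of 0.41, with 5 at an unadjusted p under 0.05. Of the 7 with a RefSeq promoter, 2 held TAGGTCA and 3 its inner letters AGGTCA in the window searched. Over the alternatives the median ran from 0.01 to 0.49, the lowest with the neighbouring nuclei score as a covariate. Arntl stood at 41.1, 43 and 39.2 CPM in control and 63.2, 66.6 and 63.3 CPM in DKO at CT4. At night, the level was 39.2, 44.2, 38, 35.1 and 27.5 CPM in control and 79.6, 92.6, 63.4 and 98.4 CPM in DKO. The genotypes did not overlap at either time, by 0.65 ± 0.16 (adjusted p = 0.0661) and 1.18 ± 0.13 (adjusted p = 0.000112), and the interaction was 0.53 ± 0.21 (adjusted p = 0.25).

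Npas2, which encodes the alternative partner of BMAL1, stood at 17.8, 18.6 and 16.5 CPM in control and 33.5, 44.7 and 43.3 CPM in DKO at CT4, and at 18.9, 18, 17.1, 18.9 and 14.4 CPM and 73, 72.4, 45 and 74.7 CPM at CT16. It was higher in DKO at both times, with an interaction of 0.73 ± 0.22 (adjusted p = 0.168), which was 0.23 with the neighbouring nuclei score as a covariate (adjusted p = 0.977). Clock had a difference of -0.081 ± 0.068 by day and 0.22 ± 0.055 at night, and Cry1, a late repressor, 0.70 ± 0.14 and 0.89 ± 0.11. Of the ROR genes, whose products activate from the same element, Rora had an interaction of 1.01 ± 0.40 and Rorb 0.92 ± 0.35. Both had values below control by day that did not pass (-0.75 ± 0.31 and -0.95 ± 0.27). With the neighbouring nuclei score as a covariate their interactions were 0.0066 and -0.031, and those of Arntl, Clock and Cry1 0.087, 0.13 and -0.075, where Clock had 0.30 and Cry1 0.19 without it. Without the 3 libraries named for their markers, Rorb was called (1.25, adjusted p = 0.0239), and Rora (1.23, adjusted p = 0.15) and Arntl (0.58, adjusted p = 0.157) were not.

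Nfil3, which encodes a repressor of D-box genes, differed by genotype to a like degree at both times. It stood at 9.62, 7.99 and 9.11 CPM in control and 22.9, 23.7 and 21.2 CPM in DKO at CT4. The CT16 values were 14.5, 12.5, 14.4, 13.3 and 12.3 CPM in control and 38.1, 39.1, 22.9 and 38.5 CPM in DKO, replicate 3 being the low one. DKO minus control was 1.35 ± 0.16 and 1.37 ± 0.13, and the interaction was 0.024 ± 0.20, with a 95% interval of -0.41 to 0.46, and -0.30 with the neighbouring nuclei score as a covariate (adjusted p = 0.972). Its promoter is shown beside that of Fabp7 because it holds the same motif, in capitals as it reads on this strand, at position -12 (GRCm38.p6, chr13:52981040-52981289, minus strand). The motif thus stands before the gene of smallest interaction p and before one whose genotype difference was 2.54-fold by day and 2.58-fold at night.
Nfil3: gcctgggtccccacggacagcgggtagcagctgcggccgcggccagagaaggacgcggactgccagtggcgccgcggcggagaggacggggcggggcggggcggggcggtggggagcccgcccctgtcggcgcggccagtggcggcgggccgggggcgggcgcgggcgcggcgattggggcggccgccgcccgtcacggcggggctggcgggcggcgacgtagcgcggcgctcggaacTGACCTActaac

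The 12 E-box and D-box genes had a median interaction of 0.17 (0.11 to 0.23 over the alternatives), with 5 at an unadjusted p under 0.05. Dbp, which encodes a D-box activator, stood at 33.6, 33.3 and 38 CPM in control and 61.9, 68.6 and 64 CPM in DKO at CT4. The level at CT16 was 20, 27.1, 19.1, 16 and 17.1 CPM in control and 60.7, 84.5, 63.5 and 88.1 CPM in DKO. It fell from day to night in control (-0.81 ± 0.16, adjusted p = 0.0135), and the DKO libraries of both times overlapped (0.19 ± 0.17, adjusted p = 0.569). The interaction of Dbp was 1.01 ± 0.23 (adjusted p = 0.113).

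Ciart, which encodes a repressor of CLOCK and BMAL1, stood at 14.5, 12.7 and 15.7 CPM in control and 19.6, 21.1 and 21.5 CPM in DKO at CT4. At night the libraries held 11.7, 13.5, 10.4, 8.27 and 11.8 CPM in control and 29.7, 35.2, 24.4 and 36.3 CPM in DKO. The genotypes were apart at both times and further at night, for an interaction of 0.95 ± 0.21 (adjusted p = 0.102). Hlf, a relative of Dbp, had 0.65 ± 0.19 (adjusted p = 0.159), and Bhlhe41, whose product DEC2 competes at E-boxes, 0.54 ± 0.15 (adjusted p = 0.15). Tef, the other D-box activator gene, had 0.17 ± 0.088, and Bhlhe40 (DEC1) 0.17 ± 0.13. Beside the neighbouring nuclei score as a covariate the interaction of Hlf was 0.19 (adjusted p = 0.976), that of Bhlhe41 0.32, of Dbp 0.67 and of Ciart 0.70.

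The Ciart promoter is shown for its E-boxes, CACGTG, a motif that 10.9% of tested promoters and 4 of 9 matched promoters of the E-box and D-box genes hold. The 250 bases before the start (GRCm38.p6, chr3:95882229-95882478, minus strand) hold 3, in capitals, at positions -116, -58 and -44.
Ciart: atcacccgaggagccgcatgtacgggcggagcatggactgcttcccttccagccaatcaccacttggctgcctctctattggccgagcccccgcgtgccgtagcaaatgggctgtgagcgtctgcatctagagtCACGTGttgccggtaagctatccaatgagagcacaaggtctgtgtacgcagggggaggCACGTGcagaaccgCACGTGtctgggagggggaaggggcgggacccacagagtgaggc

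The period and cryptochrome genes, the repressor arm of the clock, had smaller values. Per1 had an interaction of 0.40 ± 0.16 (adjusted p = 0.265), Per3 0.16 ± 0.12, Cry2 0.11 ± 0.075 and Per2 -0.077 ± 0.29. Per3 and Cry2 were higher in DKO at both times, by 0.42 and 0.43 at CT4 and 0.59 and 0.55 at CT16, and for Per2 neither difference passed (0.062 and -0.015). Usp2, a clock-controlled deubiquitinase gene, rose from CT4 to CT16 in control (0.92 ± 0.095) and in DKO (0.85 ± 0.098), and Wee1, a cell cycle kinase gene under E-box control, had an interaction of 0.068 ± 0.12. The 95% intervals of Per2 (-0.71 to 0.56) and Usp2 (-0.35 to 0.21) hold values of both signs. Beside the neighbouring nuclei score Per1 had 0.12, Cry2 -0.0081, Per2 -0.49 and Usp2 -0.31.

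**Figure D4:**
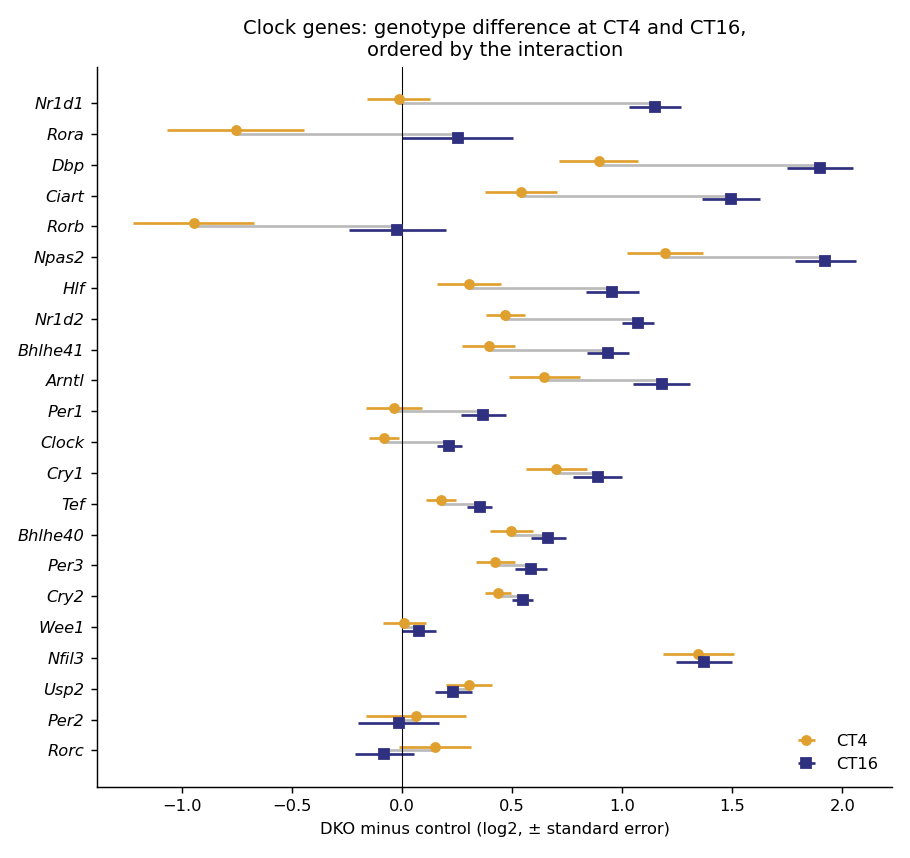
DKO minus control (log2, bars for standard errors) at CT4 and at CT16 for the 22 clock genes, ordered by the interaction. For Nr1d1 the value is -0.016 at CT4 and 1.15 at CT16, and for Nfil3 both points lie close together, at 1.35 and 1.37.

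Of 12 genes of kinases and ubiquitin ligases that set clock protein stability, 6 were positive and 6 negative. Among those with an unadjusted p under 0.05 were the ligase genes Fbxl21 (0.46 ± 0.18) and Huwe1 (0.19 ± 0.07) and the kinase gene Csnk1d (-0.14 ± 0.064). They were named after their values were seen, as are all genes below that are named for an unadjusted p. The 6 genes of the NCoR and HDAC3 corepressor complex ran from -0.092 to 0.15, and 0 had an unadjusted p under 0.05.

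Transcripts outside the clock that stand much higher in DKO form a list drawn from these same samples, so their direction is not independent evidence. All 14 had positive interactions, with a median of 1.46 against 0.0155 for all genes. Their medians were 1.43 by day and 2.50 at night. An unadjusted p under 0.05 was found for 9, all positive, where 8.34% of all genes were. Besides Fabp7, Pla2g3 and Aoc1, the list holds Rgs16, which encodes a regulator of G-protein signalling in SCN neurons and was singled out after its value was seen. Rgs16 had -0.29 ± 0.41 by day and 2.39 ± 0.34 at night (adjusted p = 0.00193), an interaction of 2.68 ± 0.54 (adjusted p = 0.102).

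The 11 genes that stand lower in DKO, a list of the same kind, had a median interaction of -0.49. Kirrel2, which encodes a nephrin-like adhesion protein, stood at 1.52, 2.1 and 2.12 CPM in control and 1.27, 2.03 and 2.03 CPM in DKO at CT4. At CT16 it stood at 6.95, 7.68, 7.21, 8.23 and 10.4 CPM in control and 1.57, 0.937, 3.13 and 1.28 CPM in DKO. The genotypes overlapped by day and were apart at night. Kirrel2 rose with time in control (2.09 ± 0.32, adjusted p = 0.00224) and had -0.012 ± 0.33 in DKO (adjusted p = 0.987). Its interaction was -2.10 ± 0.45 (adjusted p = 0.0949), and -1.40 with the neighbouring nuclei score as a covariate. Ciita, which encodes the transactivator of MHC class II genes, was lower in DKO by day (-0.97 ± 0.21, adjusted p = 0.0386) and had -0.024 ± 0.17 at night, an interaction of 0.95 ± 0.27 (adjusted p = 0.148).

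The 11 identity factors had a median interaction of 0.51 (-0.41 by day, 0.19 at night), with 9 positive. Over the alternatives this median ran from 0.0011 to 0.68, the lowest with the neighbouring nuclei score as a covariate and the highest without the 3 libraries. Among all genes 8.34% were positive and 6.78% negative at an unadjusted p under 0.05. The 5 identity factors at that level were Six6 (1.12 ± 0.37), Magel2 (0.40 ± 0.14), Lhx1 (1.74 ± 0.61), Syt10 (1.22 ± 0.44) and Vax1 (0.86 ± 0.37). The 11 SCN neuropeptide genes were split, 6 positive and 5 negative, with a median of 0.13 and a range of -2.02 to 2.48. Of these Nms (1.62 ± 0.60) and Grp (1.65 ± 0.62) reached an unadjusted p under 0.05. Of 14 receptor genes 9 were positive and 5 negative, with a median of 0.24. Vipr2 (1.61 ± 0.66), Prokr2 (1.69 ± 0.64), Drd1 (1.36 ± 0.47) and Grpr (0.93 ± 0.33) reached an unadjusted p under 0.05. None of the genes named in this paragraph passed the test by genotype at either time.

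Markers of neighbouring nuclei went the other way from the identity factors. Of 25, 23 were negative, with a median of -0.94 (0.77 by day, -0.70 at night). Over the alternatives this median ran from -2.10, without the 3 libraries, to -0.31. An unadjusted p under 0.05 was found for 7, all negative, where 6.78% of all genes were. Otp, a transcription factor gene of paraventricular neurons, had -0.55 ± 0.16 (adjusted p = 0.151; -0.33 with the score, of which it is a part, as a covariate) and Uncx -1.40 ± 0.43 (adjusted p = 0.168). Myelin genes were positive in 12 of 12, with a median of 0.74, none at an unadjusted p under 0.05, and a range over the alternatives of -0.28 to 1.05. Their summed level was 5482 to 7917 CPM in control and 6278 to 7047 CPM in DKO at CT4, and 2967 to 9761 and 3923 to 20070 CPM at CT16, the top value being replicate 4.

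Several housekeeping classes leaned to the negative side. Of 25 cytosolic ribosomal protein genes, 23 were negative and 10 of these had an unadjusted p under 0.05, against 47.3% and 6.78% of all genes. Their median was small, -0.11 (-0.13 to -0.091 over the alternatives). Rps24 was higher in DKO by day (0.33 ± 0.051, adjusted p = 0.00666) and had 0.0071 ± 0.042 at night, an interaction of -0.32 ± 0.066 (adjusted p = 0.079). Of 21 nuclear genes of oxidative phosphorylation, 19 were negative, with a median of -0.089, Cox5a at -0.44 ± 0.12 and Ndufa4 at -0.27 ± 0.077. Both lists hold short transcripts, with median exonic lengths of 805 and 1073 bases against 2808.5 for all tested genes, and genes of low p were shorter on the negative side than on the positive side. With each library's length slope as a covariate the list medians were -0.10 and -0.10. Heat shock and chaperone genes were negative in 14 of 17, with Hsp90ab1 at -0.24 ± 0.064 and Hspa1a, whose reads may be shared with its near-identical copy Hspa1b, at -0.76 ± 0.25 (-0.41 with the neighbouring nuclei score as a covariate). In the other direction, all 8 nuclear noncoding RNAs were positive, with a median of 0.27 and a median length of 7871 bases. With the length slope as a covariate their median was 0.22.

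Rbm3, which encodes a cold-inducible RNA-binding protein, stood at 34.2, 36.4 and 36.7 CPM in control and 58.1, 50 and 53.7 CPM in DKO at CT4. The libraries at CT16 held 51, 63.5, 52.3, 54.5 and 56.7 CPM in control and 59.4, 49.7, 63.4 and 61.3 CPM in DKO. By day the genotypes did not overlap, and at night they did, for an interaction of -0.52 ± 0.12 (adjusted p = 0.103).

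Immediate early genes, which report neuronal activity, were negative in 14 of 19, against 47.3% of all genes, and positive in 5. Their median was -0.33 (-0.53 to -0.21 over the alternatives), with single genes from -1.40 to 0.82. An unadjusted p under 0.05 was found for 4 on the negative side (6.78% of all genes) and 1 on the positive side (8.34%). Egr1 stood at 29.4, 24.9 and 27.2 CPM in control and 60, 50.3 and 31.3 CPM in DKO at CT4, and at 100, 54, 60.2, 63.3 and 83.4 CPM and 72.3, 33.4, 45 and 49.9 CPM at CT16. It rose from day to night in control (1.41 ± 0.29, adjusted p = 0.0213) and had 0.085 ± 0.29 in DKO (adjusted p = 0.907). The interaction was -1.33 ± 0.40 (adjusted p = 0.178), and that of Egr4 -1.40 ± 0.41 (adjusted p = 0.153). Bdnf, an activity-dependent neurotrophin gene, had -1.23 ± 0.33 (adjusted p = 0.145; -0.65 with the neighbouring nuclei score as a covariate). The 17 glucocorticoid-responsive genes, Hif3a among them, had a median of 0.13, which ran from -0.12 to 0.24 over the alternatives.

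Channel, receptor and lipid genes went both ways. Of 18 sodium, calcium and HCN channel genes, 11 were positive and 7 negative, with a median of 0.039. An unadjusted p under 0.05 was found for 5, all positive, where 8.34% of all genes were: Cacna1d, Cacna1e, Cacna1c, Cacna1g and Nalcn. This list holds long transcripts, with a median exonic length of 8225.5 bases. With the length slope as a covariate its median was -0.048. Cacna1d, of the L-type calcium current of pacemaking, was lower in DKO by day (-0.46 ± 0.098, adjusted p = 0.0349) and had 0.08 ± 0.08 at night, an interaction of 0.54 ± 0.13 (adjusted p = 0.104; 0.24 with the neighbouring nuclei score as a covariate). Kcnma1, the BK potassium channel gene that shapes the SCN firing rhythm, had 0.38 ± 0.10 (adjusted p = 0.144; 0.20 with the neighbouring nuclei score as a covariate). The 22 receptor genes for GABA, glycine and glutamate were negative in 17, against 47.3% of all genes, with Grin1 at -0.41 ± 0.12.

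The 21 lipid-handling genes had a median of 0.066. Acsl3, an acyl-CoA synthetase gene, stood at 216, 238 and 213 CPM in control and 247, 218 and 231 CPM in DKO at CT4, which overlap. At CT16 it stood at 192, 219, 200, 211 and 201 CPM and 273, 304, 269 and 312 CPM, which do not, for an interaction of 0.44 ± 0.091 (adjusted p = 0.0814). Fabp5, a relative of Fabp7, had -0.44 ± 0.13 (adjusted p = 0.156; -0.20 with that score), opposite in sign to Fabp7. Matrix and metalloproteinase genes, 17 with Mmp14 among them, had a median of 0.087, and 19 genes of cholesterol synthesis -0.042.

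**Figure D5:**
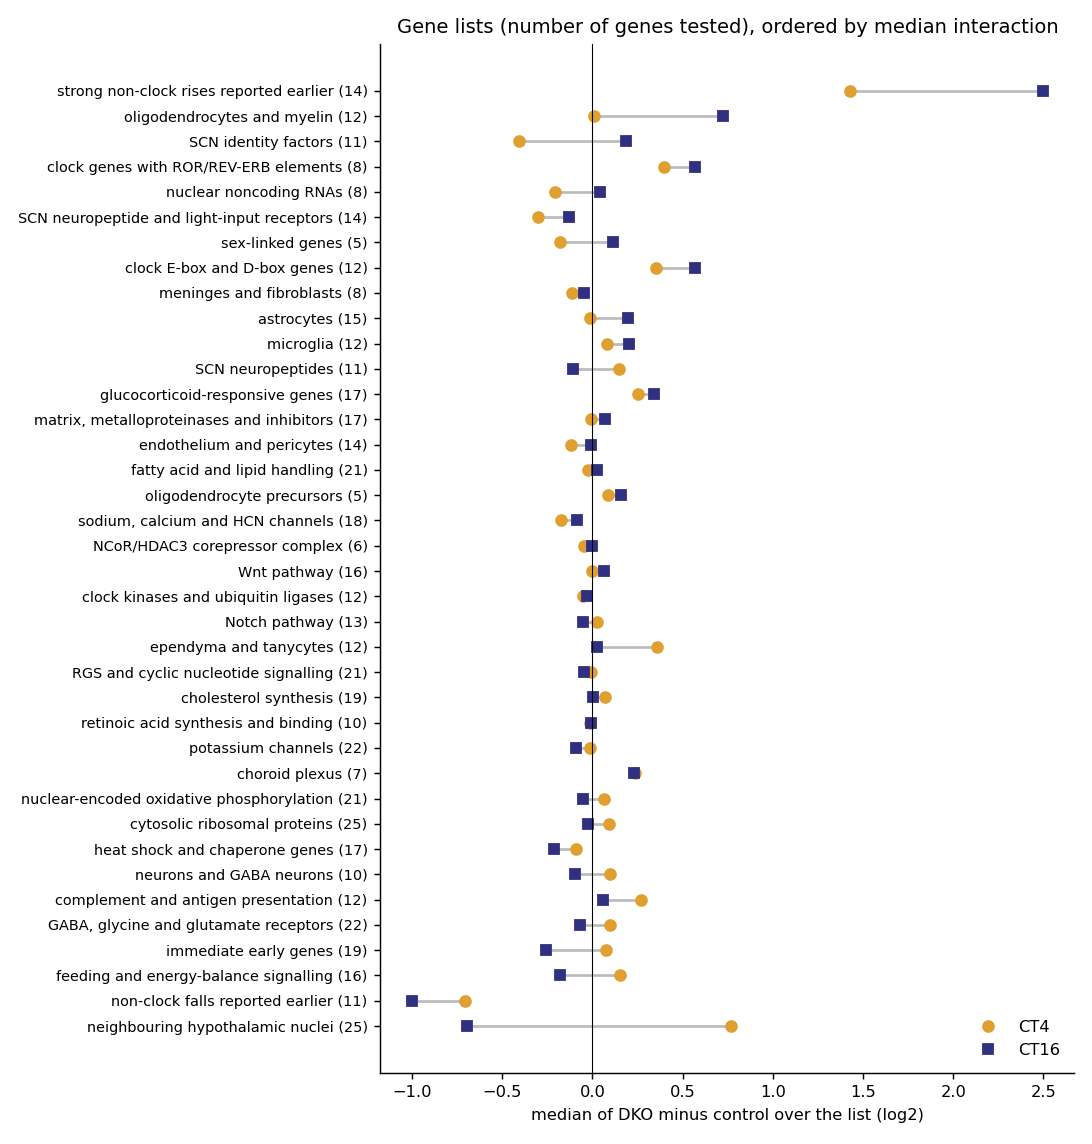
Median DKO minus control (log2) at CT4 and at CT16 over each list with at least 5 tested genes, ordered by the median interaction. The strong non-clock rises (1.43 and 2.50) and the neighbouring hypothalamic nuclei (0.77 and -0.70) lie at the ends.

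Transcript length differed between the sides. Genes with an unadjusted p under 0.01 had a median exonic length of 4659 bases on the positive side (487 genes, 2.88%) and 1850.5 bases on the negative side (364 genes, 2.15%), against 2808.5 for all tested genes. The slope of a library's log2 CPM, relative to all libraries, on log2 length was 0.00593 to 0.00875 in control and -0.00848 to -0.00573 in DKO at CT4, and -0.0038 to 0.0061 in control and -0.0104 to 0.0121 in DKO at CT16. By this slope the genotypes did not overlap at CT4 and did at CT16. With the slope as a covariate, an alternative chosen after seeing the data, Fabp7 (2.42) and Pla2g3 (1.5) were called along with Ttll3, a tubulin glycylase gene.

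Promoter motifs, searched on both strands in the RefSeq windows, were described for the same sides. TAGGTCA stood in 3.33% of 360 promoters on the positive side and 1.49% of 269 on the negative side, against 2.24% of all. Its inner 6 letters AGGTCA, which every TAGGTCA also holds, stood in 14.2% and 11.9%, against 15.4%. CACGTG stood in 13.9% and 10.8%, against 10.9%, and the D-box TTANGTAA in 2.5% and 1.49%, against 1.93%. Of the 10 genes of smallest p, 9 had a promoter in the table, of which 1 held TAGGTCA and 3 AGGTCA.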

How the data were processed

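Bulk RNA sequencing of pooled SCN punches was analysed from the authors' deposited count table, which holds unnormalized whole read counts by gene and by library. STAR and featureCounts, DESeq2 and the build mm10 are listed in the submitters' processing notes, with versions, annotation and strand setting not given in the sources used here, so overlapping and antisense genes may share reads. The table's column of exonic length was used only for the length trends. Library pairs within a group correlated at 0.9803 to 0.9899 and differed by more than sampling noise (chi-square per degree of freedom 6.571 to 123.7), so each counted as 1 replicate. Which mice were pooled is not labelled, and p-values therefore reflect how pools vary.

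The edgeR package (4.0.16, in R 4.3.3) was used throughout. Genes that passed filterByExpr were scaled with TMM factors and fitted with 4 group means over all 15 libraries (11 residual degrees of freedom). The interaction and its parts were called by its robust quasi-likelihood test at a Benjamini-Hochberg adjusted p under 0.05 over all 16910 genes, and every adjusted p in the text comes from edgeR, except that ranges over alternatives include DESeq2 and voom. Log2 CPM used a prior count of 2. Named were the clock genes, the 10 smallest p-values, the called genes of a mean log2 CPM of at least 1 (up to 12 a side), and from each other list the called members or up to 2 of smallest p under 0.01. The members and the 40 lists (548 genes, 541 tested) were chosen with earlier results of these data known. On simulated counts of the interaction (16741 genes), 32 of 67, 53 of 67 and 64 of 66 genes changed by 0.5, 1 and 2 on the log2 scale were recovered, and 3.87% of calls were false. These counts held no tissue differences between libraries. Alternatives were other scaling factors (RLE, upper quartile), DESeq2 1.42.0, voom of limma 3.58.1 with quality weights, other filters, a replicate block, tissue scores as covariates, exclusion of 3 libraries (DKO CT16 replicates 3 and 4, control CT4 replicate 1) and each library left out. Chosen after seeing the data were a test without robust dispersions, a threshold of 0.1 and the length slope as a covariate. Results for some genes are left out here. Promoters are from RefSeq (GRCm38.p6) by gene symbol; Pla2g3 had no entry.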

Additional observations from a re-analysis of the deposited data

Results flagged for a closer look

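In 9 of 142 groups of libraries looked at, 1 library lay far from the others of its group, and chance alone gives about 1 in 20. DKO CT16 held 8 of them and control CT16 held 1. The CT4 groups, of 3 libraries each, were too small for this check and were not looked at. DKO CT16 replicate 3 was low for Nfil3, at 22.89 against 38.13 to 39.06 CPM in the other libraries, and for Npas2, at 44.96 against 72.44 to 74.66 CPM, and high for Fabp5, at 60.83 against 48.4 to 49.83 CPM. DKO CT16 replicate 4 was low for Cox5a, at 57.43 against 71.49 to 72.66 CPM, and Tef, at 342.2 against 396.8 to 400.9 CPM. The same library was high for H2-D1, at 13.26 against 11.18 to 11.38 CPM, and in the score of meninges and fibroblasts, at 0.3824 against -0.2599 to -0.1678. DKO CT16 replicate 2 was high for Igf1r, at 105.9 against 100.7 to 100.9 CPM, and control CT16 replicate 3 low for the Y-linked Uty, at 20.49 against 22.47 to 23.24 CPM.

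The genotype difference itself differed between CT4 and CT16 by the edgeR test for Fabp7, by 2.462 on the log2 scale, and for Pla2g3, by 1.793.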

How the results depend on the processing

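The number of called genes, 2 positive and 0 negative, was the same with RLE and with upper quartile factors and moved with most other settings. It was 360 (189 positive, 171 negative) with DESeq2, 422 (229 positive, 193 negative) with voom, 6 (4 positive, 2 negative) with no filter, 4 (2 positive, 2 negative) with a stricter filter, 0 (0 positive, 0 negative) with the neighbouring nuclei score, 93 (61 positive, 32 negative) with the myelin score, 3 (2 positive, 1 negative) with both scores (Ppp1r1b, Rftn2 and Vamp2, named after their values were seen) and 423 (247 positive, 176 negative) without 3 libraries. Of the alternatives chosen after seeing the data, it was 6 (4 positive, 2 negative) without robust dispersions, 52 (36 positive, 16 negative) at an adjusted p under 0.1 and 3 (3 positive, 0 negative) with the length slope. Leaving out 1 library at a time gave 1 to 298 called genes, 1 to 162 positive and 0 to 136 negative, the highest without DKO CT16 replicate 3. Fabp7 and Pla2g3 were both among the called genes under DESeq2, voom, the myelin score, the exclusion of 3 libraries and without DKO CT16 replicate 3. Neither was called with both scores, Fabp7 at 2.20 (adjusted p = 0.102) and Pla2g3 at 1.62 (adjusted p = 0.179). Among the single genes and lists named, 2550 values stayed on their side of the threshold or within their spread, 152 passed it newly, 14 lost it (2 of Fabp7 and 12 of Pla2g3), 28 list medians moved and none of the called genes changed sign. Except where fewer libraries or genes were used, the cause was not tested. Low counts limit Aoc1, and 3619 genes had no count at all.

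With the replicate number as a block, 1 gene was called, 1 positive and 0 negative, Fabp7 (2.40), and Pla2g3 had 1.83 (adjusted p = 0.0995). The labels do not say whether the numbers pair the samples. Deviations of same-numbered libraries correlated at -0.184 to 0.147, and 2 of 19 pairs exceeded 0.1. Those of libraries with other numbers, in different groups, ran from -0.325 to 0.301, with 8 of 64 above 0.1.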

Other observations

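A set of 129 genes was called under all of DESeq2, voom, the exclusion of 3 libraries and the fit without DKO CT16 replicate 3, which share most libraries and so are no independent repeats. It was put together after the values were seen and is given as a description. Of the 129, 83 were positive and 46 negative. In 62 DKO lay below control by day and above it at night, in 42 the reverse held, and in 18 DKO lay above at both times and more at night. Among the positive ones the control mean was lower at night in 80 and the DKO mean higher at night in 81. Among the negative ones the control mean was higher at night in 45 and the DKO mean lower in 44. The changes with time thus had opposite signs in the genotypes for the most part. The interaction equals the DKO change with time minus the control change, so picking genes by it favours such signs. These counts only describe the set. Largest in size were Rgs16 (2.68 ± 0.54), Fabp7 (2.46 ± 0.24) and Kirrel2 (-2.10 ± 0.45), and they include Epha8, an ephrin receptor gene (1.61 ± 0.35), Col5a3, a collagen gene (1.12 ± 0.22), and on the negative side C1qtnf1, which encodes a secreted adiponectin relative (-1.10 ± 0.28). In the main edgeR fit over all 15 libraries, Fabp7 and Pla2g3 were the only genes of the set called. With no filter or the stricter one, edgeR also called Atpif1 and Hif3a of the set, among others. The median exonic length was 5004 bases for the positive and 1736.5 for the negative ones.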
